A study of Homo sapiens with 4 samples.

Results

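Nucleotide synthesis enzymes are described here through 9 genes, which were taken by their gene symbols from the gene-level RNA-seq table of the study: RRM1, RRM2, RRM2B, TYMS, DUT, TK1, CAD, DHODH and UMPS. Each of the 9 genes had 1 row among the 58735 genes of the table. All 9 had a mean of at least 1 FPKM, the limit that kept 14429 genes for comparison. FPKM stands for fragments per kilobase of gene and per fixed number of fragments, here with a library size that differed from the reads on genes. The mRNA was sequenced in 4 libraries of 2 human colorectal cancer cell lines, HCT116 and LOVO. Adherent cells were grown untreated in RPMI-1640 with fetal bovine serum, whereas spheroids were grown, according to the study's methods, in serum-free medium with B27, N2, bFGF and EGF on ultralow attachment dishes and with oxaliplatin, a platinum drug that crosslinks DNA. The labels give the genotype of all 4 libraries as WT and the treatment of the spheroids as 1 mg/ml without naming the drug, while the paper states the same figure in μg/ml. Growth form, medium and drug therefore changed together and cannot be told apart. With 1 library for each condition, no value below has a replicate error and no difference was tested across conditions.

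These enzymes supply the building blocks of RNA and DNA. CAD, DHODH and UMPS make uridine monophosphate from small precursors. Ribonucleotide reductase then removes an oxygen from ribonucleotides and so makes deoxyribonucleotides; it is built from the large subunit RRM1 and a small subunit, which is RRM2 in dividing cells or the p53-inducible RRM2B. TYMS methylates deoxyuridine monophosphate to thymidine monophosphate and is the target of fluorouracil, DUT removes dUTP and so provides the substrate of TYMS, and TK1 salvages thymidine. Genes of deoxyribonucleotide supply such as TYMS, TK1 and RRM2 are known to peak around S phase.

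The reads on genes numbered from 15483569 to 20429147 per library, recovered from the FPKM values, and the 9 enzymes had at least 131 reads in each library. The libraries labelled LOVO carried some of the markers of colon epithelium that their label implies but had few or no reads of others. CDH1, the epithelial cadherin, had 3920 and 3227 reads in adherent HCT116 cells and HCT116 spheroids but 13 reads and 1 read in the LOVO libraries, and CDX2, an intestinal transcription factor, had 0 reads in both LOVO libraries. KRT8 and KRT18 were present in all 4 libraries, while CDX1 and VIL1 had at most 11 reads in any library, HCT116 included. The summed level of 12 epithelial markers was 1755 and 1289 FPKM in the HCT116 libraries against 327 and 187 FPKM in the LOVO libraries, with adherent cells given before spheroids. The 6 fibroblast markers summed to 5.60 and 16.1 FPKM in HCT116 and to 54.0 and 72.8 FPKM in LOVO, where the proteoglycan genes LUM and DCN had at least 1694 reads each. DCN had 0 reads in both HCT116 libraries, where COL1A1 made up most of the sum. COL3A1 and PDGFRB were also higher in both LOVO libraries than in either HCT116 library. COL1A1 was not, at 5.51 and 15.5 FPKM in HCT116 and 9.89 and 6.10 FPKM in LOVO. COL1A2 had at most 1 read in any library. The 6 immune markers summed to at most 2.24 FPKM in any library, and the 5 endothelial markers to 7.96 FPKM in LOVO spheroids and at most 1.23 FPKM elsewhere. The part of this in the LOVO values was not tested, and LOVO below means the libraries labelled so. The HCT116 values do not use them, but the genes compared were kept by their mean over all 4 libraries.

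**Figure D1:**
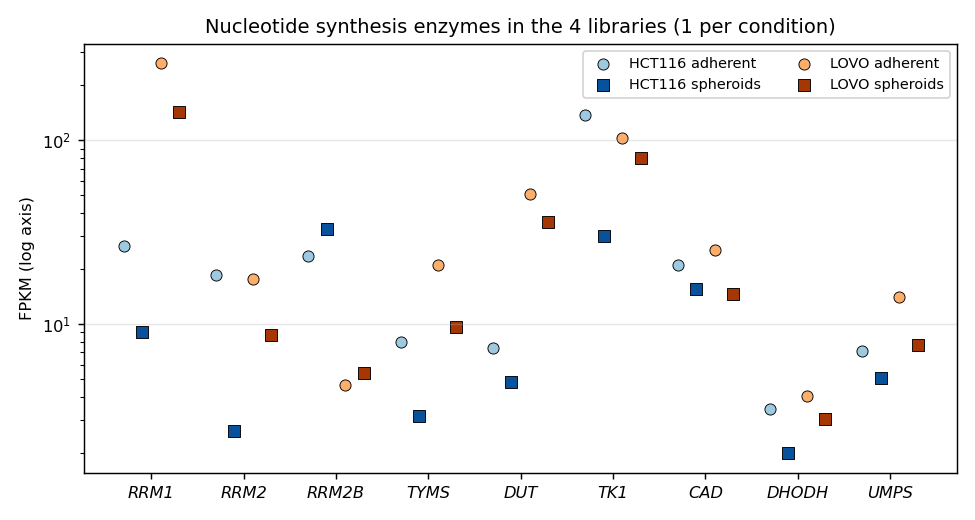
FPKM of the 9 nucleotide synthesis enzymes (x axis) in the 4 libraries on a log axis, with circles for adherent cells and squares for spheroids; each point is 1 library. Squares lie below circles of the same line for 8 genes and above them for RRM2B, and RRM1 ranges from 9.01 to 261 FPKM.

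In spheroids of both lines, 8 of the 9 enzymes were lower than in adherent cells and RRM2B was higher, whereas of all genes compared 53.4% were lower in HCT116, 53.5% in LOVO and 35.1% in both. RRM2B shared its direction in both lines with 27.2% of all genes. In HCT116 spheroids, 4 enzymes had a change below -1 on the log2(FPKM + 1) scale, namely RRM2, TK1, RRM1 and TYMS, against 3.33% of all genes (3.53% of genes kept by the HCT116 libraries alone). In LOVO spheroids, TYMS alone of the 9 had such a change, against 7.85% of all genes, and RRM2 lay just above the limit at -0.94. Below -2 lay RRM2 and TK1 in HCT116, against 0.506% of all genes, and 0 enzymes in LOVO, against 0.943%. No enzyme had a change above 1 in either line, against 2.19% of all genes in HCT116 and 8.57% in LOVO (0.201% and 1.81% above 2). The share above 1 in HCT116 was 2.61% of genes kept by the HCT116 libraries alone. Rescaled to TPM, length-corrected values that sum to the same total in each library, these backgrounds were 4.33% below -1 and 4.25% above 1 in HCT116, and 6.74% and 15.7% in LOVO. TYMS was the enzyme below -1 in both lines, against 0.880% of all genes, although its change in LOVO was -0.90 with TPM and no longer past -1. The median change of the 9 enzymes was -0.58 in HCT116 and -0.75 in LOVO, beside -0.03 and -0.06 over all genes compared.

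By role, the 5 genes of deoxyribonucleotide supply other than RRM2B (RRM1, RRM2, TYMS, DUT and TK1) had a median change of -1.46 in HCT116 spheroids and -0.87 in LOVO spheroids. The 3 enzymes of uridine monophosphate synthesis had medians of -0.41 and -0.75. With RRM2B left out, the median of the deoxyribonucleotide genes was thus below that of the uridine monophosphate genes in both lines, with medians farther apart in HCT116. In LOVO this order of the medians rests on leaving RRM2B out. The groups overlapped, since DUT had a change of -0.52 in HCT116 and DHODH of -0.58. In LOVO TK1 and DUT, at -0.35 and -0.50, changed by less than CAD and UMPS, at -0.75 and -0.80, while RRM1, RRM2 and TYMS lay lower. These values describe mRNA in bulk cultures, in which fewer cells expressing a gene and less RNA per cell cannot be told apart.

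**Figure D2:**
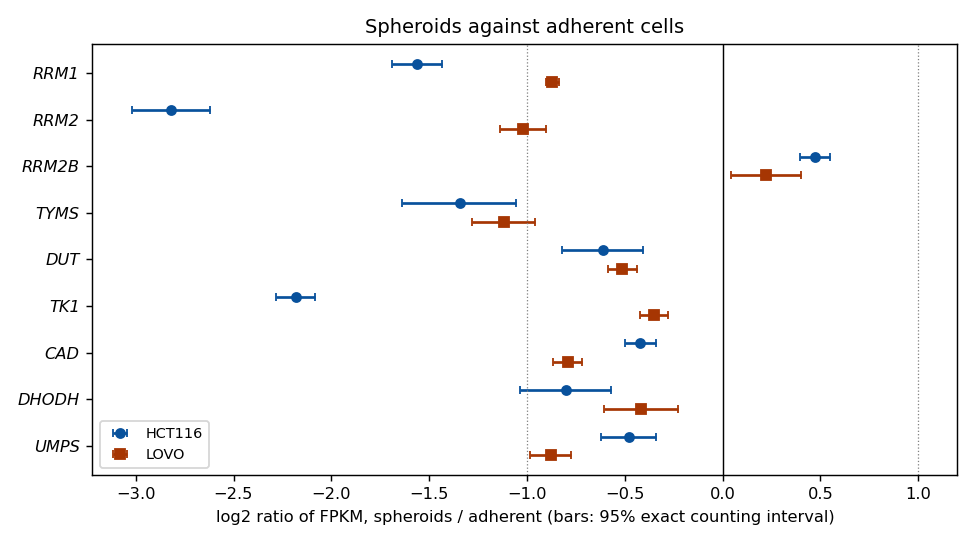
Log2 ratio of FPKM in spheroids to adherent cells (x axis, no pseudocount) for each enzyme in HCT116 and LOVO; bars are 95% exact counting intervals of the reads of 1 library against 1 library, and dotted lines mark -1 and 1. RRM2 and TK1 lie far to the left in HCT116, at -2.82 and -2.18, and RRM2B is the gene to the right of 0 in both lines.

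To show what stands upstream of the genes with the lower levels, the RefSeq promoter windows (GRCh38.p14, 250 bases before to 50 bases after a transcription start) were read for the enzymes. Windows were given for 8 of the 9 enzymes, 13 in all, and RRM2B had none. DUT had 4 windows, and TK1 and RRM2 had 2 each. Some windows of the same gene overlapped, so that counts of windows are not counts of separate promoters. Printed 5′ to 3′ along each gene are the 4 enzymes below -1 in HCT116 spheroids and DUT, each with the window that held the most of the words searched for. Capitals mark the E2F words TTTCCCGC, TTTGGCGC, TTTCGCGC and TTTGCCGC, the CCAAT box, and the CHR word TTTGAA of cell cycle genes, each on either strand.
TYMS, plus strand, chr18:657403-657702: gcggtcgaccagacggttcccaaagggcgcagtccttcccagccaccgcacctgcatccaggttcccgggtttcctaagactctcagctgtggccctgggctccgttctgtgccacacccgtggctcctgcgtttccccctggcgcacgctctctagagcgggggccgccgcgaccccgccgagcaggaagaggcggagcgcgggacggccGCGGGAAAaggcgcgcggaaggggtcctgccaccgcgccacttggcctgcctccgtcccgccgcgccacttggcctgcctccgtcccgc
TK1, minus strand, chr17:78187003-78187302: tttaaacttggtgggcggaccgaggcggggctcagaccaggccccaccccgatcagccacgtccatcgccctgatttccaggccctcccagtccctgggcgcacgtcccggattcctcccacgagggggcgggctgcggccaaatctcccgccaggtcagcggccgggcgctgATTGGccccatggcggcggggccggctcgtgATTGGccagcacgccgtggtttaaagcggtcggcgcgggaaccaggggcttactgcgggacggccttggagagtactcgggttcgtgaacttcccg
RRM1, plus strand, chr11:4094435-4094734: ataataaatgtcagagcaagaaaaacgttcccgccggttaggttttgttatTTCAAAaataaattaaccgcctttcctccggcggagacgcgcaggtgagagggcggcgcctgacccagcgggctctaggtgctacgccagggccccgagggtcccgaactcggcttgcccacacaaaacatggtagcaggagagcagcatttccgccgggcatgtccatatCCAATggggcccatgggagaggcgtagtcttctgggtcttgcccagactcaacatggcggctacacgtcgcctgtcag
RRM2, plus strand, chr2:10122489-10122788: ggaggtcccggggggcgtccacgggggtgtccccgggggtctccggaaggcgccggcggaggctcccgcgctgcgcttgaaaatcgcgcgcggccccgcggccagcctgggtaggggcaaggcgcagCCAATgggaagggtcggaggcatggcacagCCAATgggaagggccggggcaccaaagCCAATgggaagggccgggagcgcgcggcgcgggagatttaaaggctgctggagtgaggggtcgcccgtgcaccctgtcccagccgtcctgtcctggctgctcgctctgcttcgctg
DUT, plus strand, chr15:48331947-48332246: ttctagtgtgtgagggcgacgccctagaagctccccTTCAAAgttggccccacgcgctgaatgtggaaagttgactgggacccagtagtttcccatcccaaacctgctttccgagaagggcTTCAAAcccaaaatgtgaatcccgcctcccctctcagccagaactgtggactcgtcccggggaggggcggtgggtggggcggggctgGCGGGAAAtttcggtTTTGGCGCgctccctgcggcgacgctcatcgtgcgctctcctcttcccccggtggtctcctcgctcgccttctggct

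The TYMS window held 1 E2F word, beginning 39 bases before the start, and the DUT window held 2, beginning 42 and 27 bases before it. No E2F word was in the TK1, RRM1 or RRM2 windows. Over all enzymes, 2 of 13 windows held an E2F word, against 3.31% of the 35116 windows of all genes. RRM2 held 3 CCAAT boxes, beginning at positions -123, -93 and -66 from the start, TK1 held 2 and RRM1 held 1. CCAAT boxes were in 6 of 13 windows of the enzymes and in 34.6% of all windows. The CHR word was in 3 of 13 windows, those of DUT, RRM1 and UMPS, against 15.2% of all windows. The E-box CACGTG, a word bound by MYC among other factors, was in 1 window, that of DHODH, against 7.26% of all. None of these matches overlapped a match of another motif. They describe letters in a window and were not tested as binding sites.

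RRM1, the large subunit of ribonucleotide reductase, is encoded on chromosome 11 (GRCh38, plus strand), from 4094707 to 4138876. The adherent HCT116 library held it at 26.6 FPKM (2262 reads) and the HCT116 spheroid library at 9.01 FPKM (632 reads). The adherent LOVO library held it at 261 FPKM (19552 reads) and the LOVO spheroid library at 143 FPKM (11996 reads). RRM1 was therefore the highest of the 9 enzymes in both LOVO libraries, second to TK1 in adherent HCT116 cells and behind RRM2B, TK1 and CAD in HCT116 spheroids. Its log2 spheroid-to-adherent ratio was -1.56 in HCT116, with a counting interval from -1.69 to -1.43, and -0.87 in LOVO, with an interval from -0.90 to -0.84. Of its exonic bases, 63 overlap an antisense gene, RRM1-AS1, which had at most 7 reads in a library.

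RRM2, the small subunit of dividing cells, lies on the plus strand of chromosome 2, from 10120698 to 10131419. HCT116 had 18.5 FPKM when adherent (2003 reads) and 2.62 FPKM as spheroids (234 reads). The spheroids thus held 14.2% of the adherent level, the largest relative difference of the 9 enzymes within a line. The change of -2.43 on the log2(FPKM + 1) scale stood at percentile 0.187 of all genes compared. LOVO had 17.6 FPKM when adherent (1679 reads) and 8.67 FPKM as spheroids (929 reads), so that 49.3% of the adherent level remained. The log2 ratio was -2.82 in HCT116 (counting interval -3.02 to -2.62) and -1.02 in LOVO (-1.14 to -0.90). The adherent libraries of the 2 lines were alike in RRM2 level, and the spheroid libraries were not. Of its exonic bases, 20.2% are shared on the same strand with AC007240.1, which had at most 23 reads in a library.

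RRM2B, the small subunit that p53 induces and that serves DNA repair and cells outside S phase, lies on the minus strand of chromosome 8, from 102204502 to 102239118. Adherent HCT116 cells had 23.6 FPKM (2664 reads) and their spheroids 32.7 FPKM (3050 reads). Adherent LOVO cells had 4.63 FPKM (461 reads) and their spheroids 5.40 FPKM (603 reads). RRM2B was the highest of the 9 enzymes in HCT116 spheroids and next to the lowest in both LOVO libraries. Spheroids held 1.39 times the adherent level in HCT116 and 1.17 times in LOVO. The log2 ratios were 0.47 (counting interval 0.40 to 0.55) and 0.22 (0.04 to 0.40), and neither passed a log2 change of 1. With a pseudocount of 1, the LOVO change was 0.18 as deposited and 0.40 with TPM.

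FPKM is given per length of gene, so that the levels of the subunits can be set beside each other, within a limit. That length counts all exonic bases of all annotated transcripts, 5323 for RRM2 and 5548 for RRM2B, and not those of the mRNA made. RRM2B made up 56.1% of the summed FPKM of RRM2 and RRM2B in adherent HCT116 cells (95% exact counting interval 54.6 to 57.5%) and 92.6% in HCT116 spheroids (91.6 to 93.5%). In LOVO its share was 20.9% in adherent cells (19.2 to 22.6%) and 38.4% in spheroids (35.9 to 40.9%). The RRM2B share was thus higher in spheroids than in adherent cells of both lines, and higher in both HCT116 libraries than in either LOVO library. The sum itself went from 42.0 to 35.3 FPKM in HCT116 and from 22.2 to 14.1 FPKM in LOVO. RRM2 stood at 0.695 times the FPKM of RRM1 in adherent HCT116 cells and at 0.291 times in their spheroids. The same ratio was 0.0674 for adherent LOVO cells and 0.0608 for their spheroids. The ratio of RRM2 to RRM1 was thus lower in LOVO spheroids too, by less than in HCT116. Its counting intervals in LOVO overlapped in part (0.0641 to 0.0708 and 0.0568 to 0.0650), which does not show that the ratio was unchanged. In HCT116 these intervals lay apart, from 0.654 to 0.738 in adherent cells and from 0.249 to 0.338 in spheroids. These shares and ratios do not depend on the scaling between libraries. They do depend on the gene lengths and on any reads that RRM2 lost where its exons are shared with AC007240.1, which the counting intervals do not cover.

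**Figure D3:**
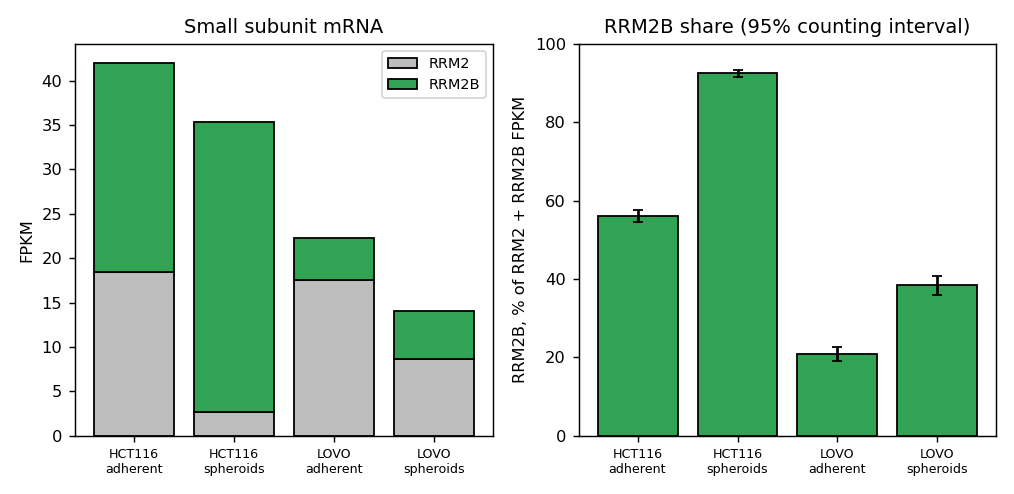
Left, FPKM of RRM2 (grey) and RRM2B (green) stacked for each library; right, RRM2B as a percentage of the summed FPKM of both, with 95% exact counting intervals and 1 library per bar. The share is 92.6% in HCT116 spheroids and 20.9% in adherent LOVO cells.

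TYMS, thymidylate synthase, lies on the plus strand of chromosome 18, from 657604 to 673578. Adherent HCT116 cells had 8.0 FPKM (403 reads) and their spheroids 3.16 FPKM (131 reads). Adherent LOVO cells had 20.9 FPKM (925 reads) and their spheroids 9.62 FPKM (478 reads). Each spheroid library was below the adherent library of its line, and LOVO spheroids were above adherent HCT116 cells. The spheroids held 39.4% of the adherent level in HCT116 and 46.1% in LOVO. The log2 ratio was -1.34 in HCT116 (counting interval -1.64 to -1.05) and -1.12 in LOVO (-1.28 to -0.96). With these reads a difference between the lines in the change of TYMS was not detectable, at 0.22 with a counting interval from -0.10 to 0.55, but rescaled to TPM it was 0.41, from 0.09 to 0.74. Of the exonic bases of TYMS, 46.6% lie in exons of genes on the opposite strand, 967 bases in ENOSF1 and 183 bases in TYMSOS. Whether the counting used strand is not stated, so reads of TYMS and ENOSF1 may not be separate. ENOSF1 itself was at 3.11 FPKM in adherent HCT116 cells and at 1.90 FPKM in their spheroids, and at 9.76 and 4.78 FPKM in LOVO, which is the same order of libraries as for TYMS. TYMSOS was at 1.51 and 0.427 FPKM in HCT116 and, in the other direction, at 6.63 FPKM in adherent LOVO cells and 8.61 FPKM in LOVO spheroids.

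DUT, the enzyme that cleaves dUTP, lies on the plus strand of chromosome 15, from 48331011 to 48343373. Adherent HCT116 cells had 7.40 FPKM (554 reads) and their spheroids 4.84 FPKM (299 reads). Adherent LOVO cells had 51.1 FPKM (3370 reads) and their spheroids 35.9 FPKM (2652 reads). Both LOVO libraries thus lay above both HCT116 libraries. The spheroids held 65.5% of the adherent level in HCT116 and 70.1% in LOVO, where the change with a pseudocount of 1 was -0.50 as deposited and -0.30 with TPM. Its change was thus among the nearest to each other in the 2 lines, with a difference of 0.10 in log2 ratio and a counting interval from -0.12 to 0.32 (0.29, from 0.07 to 0.50, with TPM). The 8 processed pseudogenes named after DUT had 13 to 18 reads together per library, and no stretch of 50 bases of a DUT transcript was found in a transcript of another gene. An antisense gene, AC023355.1, covers 14.5% of the exonic bases and had at most 69 reads.

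TK1, the thymidine kinase of the cytosol, lies on the minus strand of chromosome 17, from 78174075 to 78187233. HCT116 had 137 FPKM when adherent (5212 reads) and 30.3 FPKM as spheroids (946 reads). LOVO had 102 FPKM when adherent (3414 reads) and 80.3 FPKM as spheroids (3007 reads). HCT116 spheroids stood apart from the other libraries, which lay between 80.3 and 137 FPKM. The log2 ratio was -2.18 in HCT116 (counting interval -2.28 to -2.08) and -0.35 in LOVO (-0.42 to -0.28). On the log2 scale with a pseudocount of 1, the LOVO change was -0.35 as deposited and -0.14 with TPM. TK1 had no exonic base in common with another annotated gene and shared no stretch of 50 bases with a transcript of one.

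CAD carries the opening steps of pyrimidine synthesis in a single protein and lies on the plus strand of chromosome 2, from 27217390 to 27243943. HCT116 had 20.8 FPKM when adherent (3571 reads) and 15.6 FPKM as spheroids (2201 reads). LOVO had 25.1 FPKM when adherent (3796 reads) and 14.5 FPKM as spheroids (2461 reads). The 2 spheroid libraries held 74.8% and 57.8% of the level of their adherent cells. CAD varied the least of the 9 enzymes between libraries, its highest FPKM being 1.73 times its lowest.

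DHODH, the mitochondrial enzyme that oxidizes dihydroorotate, lies on the plus strand of chromosome 16, from 72008588 to 72027664. It was the lowest of the 9 enzymes in each library, with 3.45 FPKM (486 reads) against 1.98 FPKM (230 reads) for adherent cells and spheroids of HCT116. The corresponding LOVO levels were 4.05 FPKM (503 reads) and 3.04 FPKM (423 reads). Spheroids held 57.4% of the adherent level in HCT116 and 75.0% in LOVO, and with a pseudocount of 1 its changes read as -0.58 and -0.32 (-0.20 in LOVO with TPM).

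UMPS, which makes uridine monophosphate from orotate, lies on the plus strand of chromosome 3, from 124730366 to 124749273. HCT116 had 7.09 FPKM when adherent (1096 reads) and 5.09 FPKM as spheroids (648 reads). LOVO had 14.1 FPKM when adherent (1914 reads) and 7.66 FPKM as spheroids (1168 reads). Spheroids held 71.7% of the adherent level in HCT116 and 54.4% in LOVO. UMPS and CAD were thus lower by more in LOVO, whereas DHODH was lower by more in HCT116.

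The size of the change in the 2 lines was then compared gene by gene, as the log2 ratio in LOVO minus that in HCT116. It was above 0 as deposited for 6 of the 9 enzymes, against 47.8% of all genes on the log2(FPKM + 1) scale. TPM raised each of these differences by 0.19, and the share of all genes was not computed with it. As deposited, TK1 and RRM2 differed most, by 1.83 (counting interval 1.71 to 1.96) and 1.80 (1.57 to 2.03). Both were lower by more in HCT116 spheroids. RRM1 followed with 0.69 (0.56 to 0.82) and DHODH with 0.38 (0.09 to 0.68). CAD and UMPS differed the other way, by -0.37 (-0.48 to -0.27) and -0.40 (-0.57 to -0.22). RRM2B differed by -0.25 (-0.44 to -0.06), an interval that included 0 with TPM (-0.07, from -0.26 to 0.13) and with a TMM-style scaling (-0.16, from -0.35 to 0.03). These intervals cover counting error only, and the spread between cultures was not measured.

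Next, the libraries labelled LOVO were compared with those of HCT116 within each growth form, a comparison that uses the same 4 libraries again. Among adherent cells, 3 enzymes were higher in LOVO by more than 1 on the log2 scale (RRM1, DUT and TYMS), against 17.4% of all genes, and RRM2B was lower by more than 1, against 16.4%. RRM1 was 9.82-fold and DUT 6.91-fold higher, and TYMS was 2.61-fold higher. RRM2B was 5.08-fold higher in HCT116. Beyond 2 on the log2 scale were RRM1 and DUT, against 5.26% of all genes, and, in the other direction, RRM2B, against 5.59%. RRM2 did not differ detectably, with a log2 ratio of -0.07 and a counting interval from -0.16 to 0.02.

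Among spheroids, 5 enzymes were higher in LOVO by more than 1 (RRM1, DUT, RRM2, TK1 and TYMS), against 17.7% of all genes, and RRM2B was lower, against 15.0%. RRM1 was 15.8-fold and DUT 7.41-fold higher in LOVO spheroids, while RRM2, TYMS and TK1 were 3.32-fold, 3.05-fold and 2.65-fold higher. RRM2B was 6.06-fold higher in HCT116 spheroids. RRM1 and DUT were again beyond 2, against 5.68% of all genes, and RRM2B on the other side, against 4.71%. RRM1, DUT and TYMS were higher in LOVO by more than 1 in both forms, as were 10.8% of all genes, and RRM2B was lower in both forms, as were 10.8%. The enzymes of uridine monophosphate synthesis differed between the lines by less than 1 in both forms, except that UMPS reached 1.00 among adherent cells with TPM, which made 4 enzymes higher there. For CAD among spheroids, the direction depended on the scaling, with a change of -0.09 as deposited and 0.13 with TPM.

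**Figure D4:**
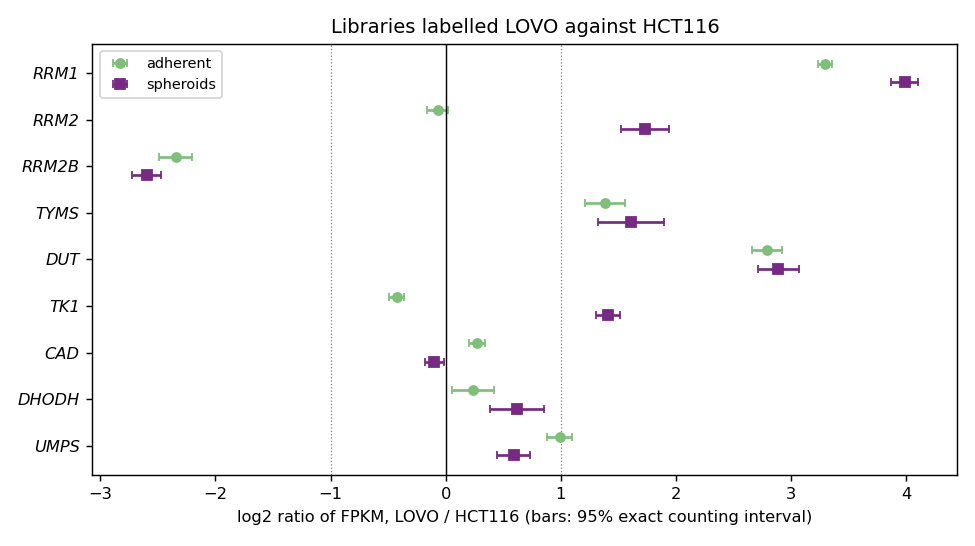
Log2 ratio of FPKM in the libraries labelled LOVO to those of HCT116 (x axis, no pseudocount) for adherent cells (circles) and spheroids (squares), with 95% exact counting intervals and dotted lines at -1 and 1. RRM1 and DUT lie to the right and RRM2B to the left in both forms, while RRM2 and TK1 lie above 1 in spheroids but not in adherent cells.

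The rest of nucleotide metabolism was read through 52 genes in 6 lists, of which 50 passed the expression limit. In HCT116 spheroids 42 of these 50 were lower than in adherent cells, against 53.4% of all genes, with a median of -0.48. There 4 were below -1 and 0 above 1, against 3.33% and 2.19% of all genes. In LOVO spheroids 37 of 50 were lower, against 53.5% of all genes, with a median of -0.38. There 7 were below -1 and 5 above 1, against 7.85% and 8.57% of all genes, the latter a share near that of the list. With TPM 33 were lower, 5 below -1 and 7 above 1, against 6.74% below -1 and 15.7% above 1 of all genes. The median with TPM was -0.22. Of 12 genes of purine synthesis, 11 were lower in each line, with medians of -0.56 and -0.72. In HCT116 0 of these were below -1, against 3.33% of all genes, and in LOVO 3 were, against 7.85%. IMPDH2, the enzyme that leads to guanine nucleotides, went from 214 to 109 FPKM in HCT116 and from 98.2 to 39.4 FPKM in LOVO. PFAS went from 7.20 to 4.60 and from 22.4 to 9.55 FPKM, while ADSSL1, the adenylosuccinate synthase known from muscle, was higher in spheroids, at 4.55 against 2.55 FPKM in HCT116 and 9.19 against 4.02 FPKM in LOVO.

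CTPS1, which makes CTP from UTP, had changes of -0.53 in HCT116 and -0.99 in LOVO. SHMT1, an enzyme of folate metabolism, had changes of -0.52 and -0.34, and CTPS2 of -0.02 and -0.60. CTPS2 thus hardly differed in HCT116, where its sign turned when changes were centred on the median of all genes, and CTPS1 and SHMT1 were lower in both lines. Of 14 nucleoside and nucleotide kinases, 10 were lower in HCT116 and 9 in LOVO, against 53.4% and 53.5% of all genes. Their medians were -0.30 and -0.37 (-0.20 in LOVO with TPM). ADK, the adenosine kinase, had changes of -0.58 in HCT116 and -1.27 in LOVO, and NME1 of -0.48 and -1.16. NME1 shares sequence with its neighbour NME2, so its value is uncertain. The 3 base salvage genes had medians of -0.77 and -0.38 (-0.18 in LOVO with TPM), with APRT at -0.78 and -0.38 and HPRT1 at -0.77 and -0.62.

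Of the 15 genes of nucleotide breakdown and pool sanitation, 3 were below -1 in HCT116, against 3.33% of all genes. In LOVO 1 was below -1 and 2 were above 1 (0 and 3 with TPM), against 7.85% and 8.57% of all genes, shares near those of the list. UPP1, a uridine phosphorylase, went from 17.0 to 3.20 FPKM in HCT116 and from 9.50 to 7.08 FPKM in LOVO. CDA, the cytidine deaminase, was higher in the spheroids of both lines, at 44.4 against 23.1 FPKM in HCT116 and 170 against 94.9 FPKM in LOVO. The nucleoside transporter gene SLC29A2 was higher in spheroids of both lines too, at 23.0 against 11.6 FPKM and 17.9 against 4.43 FPKM. SLC29A1 had changes of -0.49 in HCT116 and 1.35 in LOVO.

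**Figure D5:**
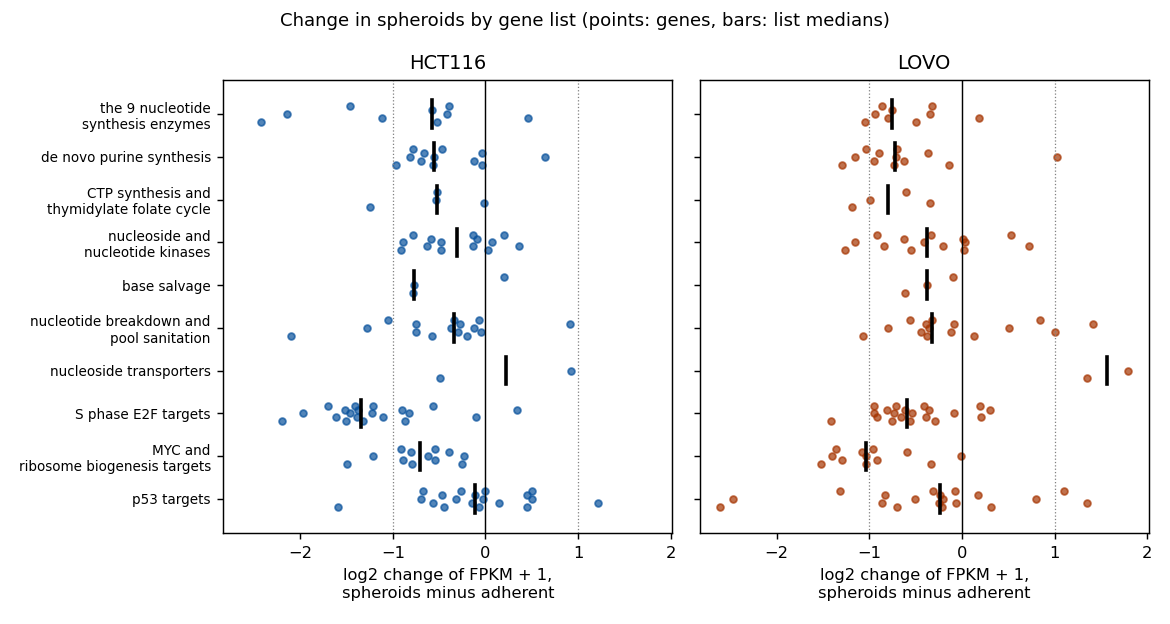
Change of each gene in spheroids against adherent cells on the log2(FPKM + 1) scale (x axis) in HCT116 (left) and LOVO (right), for the 9 enzymes and 9 related lists (rows); points are genes, black bars list medians, and dotted lines -1 and 1. The median of the S phase genes is -1.35 in HCT116 and -0.59 in LOVO.

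Genes of the regulators that are known to act on these enzymes were read beside them. Of 20 S phase genes under E2F control, 14 were below -1 in HCT116 spheroids, against 3.33% of all genes. In LOVO spheroids 1 was, against 7.85% of all genes, a share near that of the list. The medians were -1.35 in HCT116 and -0.59 in LOVO. MCM2, a subunit of the replicative helicase, had changes of -1.40 and -1.42, CDT1 of -2.20 and -0.41, and CDC6 of -1.97 and -0.74. In this list, as in the enzymes of deoxyribonucleotide supply, the median was lower in HCT116 spheroids than in LOVO spheroids. The list was also higher in LOVO than in HCT116, with medians of 1.45 among adherent cells and 2.24 among spheroids.

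CAD is also known as a MYC target. Of 12 other genes of MYC and ribosome biogenesis, 12 were lower in HCT116 spheroids and 12 in LOVO spheroids, against 53.4% and 53.5% of all genes. MYC itself was lower by 0.01 in LOVO, where each other scaling turned its sign. The medians were -0.71 and -1.03. In HCT116 2 genes were below -1, against 3.33% of all genes. In LOVO 7 were, against 7.85%, and 4 with TPM, against 6.74%. ODC1 had changes of -1.49 and -1.41, FBL of -1.21 and -0.96, and NOP58 of -0.91 and -1.29. Among 19 p53 targets, the group to which RRM2B belongs by its regulation, the medians were -0.12 in HCT116 and -0.24 in LOVO, whereas RRM2B had positive changes in both. In HCT116 13 of the 19 were lower, 1 below -1 and 1 above 1, against 3.33% and 2.19% of all genes. In LOVO 14 were lower, 3 below -1 and 2 above 1, against 7.85% and 8.57%, and the median was -0.09 with TPM. GDF15 had changes of -0.12 and -2.47, SESN2 of -1.59 and -2.61, and AEN of -0.57 and -0.83. These 3 had the largest mean changes, but 6 of the 19 were higher in HCT116 spheroids and 5 in LOVO spheroids. ZMAT3 was higher in both, by 0.50 and 0.17, as RRM2B was. CDKN1A hardly changed in HCT116 and had a change of 1.35 in LOVO. Between the lines, 8 of the 19 p53 targets were lower in LOVO by more than 1 in adherent cells and 8 in spheroids. Of all genes, 16.4% and 15.0% were. The medians of the p53 targets were -0.80 and -0.79, and RRM2B was lower in LOVO as well.

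Genes whose pattern over the 4 libraries was nearest to an enzyme were sought among 4884 genes with a mean of at least 10 FPKM, by the root mean square difference of log2(FPKM + 1) after centring each gene on its own mean. For TYMS these were TMPO, ABHD14B and MRPL24, at 0.068, 0.079 and 0.086. For RRM2B they were MYO6, RASSF3 and CMTM6, at 0.040, 0.053 and 0.12. For CAD they were STRAP, PRPF8 and TIMM50, at 0.018, 0.020 and 0.023, and 591 genes lay within 0.2 of CAD, against 28 for TYMS and 11 for RRM2B. Among the enzymes themselves the nearest pairs were CAD with DHODH, at 0.20, and RRM2 with TK1, at 0.25. With 4 libraries these distances describe the table and no more.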

How the data were processed

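Libraries of adherent and spheroid HCT116 and LOVO cells (1 each) were made from total RNA with a SMARTer mRNA kit. The authors deposited FPKM values with gene lengths and coordinates; their aligner and counter are not given in the sources used here, and their methods name edgeR for differential genes. The submitters' processing notes list the mouse builds GRCm38 and mm10, whereas the rows are human genes, and the coordinates of all 9 enzymes equal those of GENCODE 29 on GRCh38. Depth in FPKM steps gave back reads: 100% of the values above 0 were whole within 0.01. The library size behind the FPKM values was 0.998 times the reads on genes in adherent HCT116 cells and 1.09 times in their spheroids. In LOVO it was 0.907 and 1.05 times. The deposited values were thus not scaled by the reads on genes alone. TPM does not keep that library size, and the TMM-style scaling was applied on top of it.

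Log2(FPKM + 1) was compared between libraries over those genes whose mean reached 1 FPKM. A change of more than 1 was the fixed rule of size. Log2 ratios without a pseudocount carry 95% exact (Clopper-Pearson) counting intervals, those of differences between lines a normal approximation of the log reads, and all cover counting error only. A level of 3 reads corresponds to 0.147 to 0.179 FPKM for a gene of 1 kb. No p-value was computed, since each condition had 1 library. Named genes were the 9 enzymes, up to 3 genes with the largest mean change of each list, marker genes, and the 3 nearest genes of TYMS, RRM2B and CAD; genes overlapping an enzyme were named as limits, and some genes that the rule names are not reported here. CTPS2, NME2, CDH1, CDKN1A, CDX1, CDX2, COL1A2, DCN, KRT18, MYC, PDGFRB, TP53I3, VIL1 and ZMAT3 were named after their values were seen. So were the members of the nearest pairs. The enzymes and lists were chosen with earlier results of these data known. Alternatives were pseudocounts of 0.1 and 0.01, other expression limits, TPM, TMM-style scaling, centring, a threshold of 2, protein-coding genes only and pseudogene reads added. Recovery of reads and changes was tested on simulated data with counting noise only. The changes put in were larger than the rule of size and lay in genes well above the expression limit. That test does not cover smaller changes, genes of low level or the spread between cultures. Python 3.11.15, numpy 2.4.6, pandas 2.3.3, scipy 1.17.1 and matplotlib 3.10.9 were used.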

Additional observations from a re-analysis of the deposited data

Results flagged for a closer look

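SLC29A1, a nucleoside transporter gene, was lower in HCT116 spheroids, with a log2(FPKM + 1) change of -0.49, and higher in LOVO spheroids, with a change of 1.35. UPRT, a gene of the base salvage list, had changes of 0.20 in HCT116 and -0.093 in LOVO, the latter being 0.09 with TPM, so that the directions were then alike. COL1A1, a collagen gene of the fibroblast list, had changes of 1.34 in HCT116 and -0.62 in LOVO. These are listed because the 2 lines went in opposite directions as deposited. Apart from the enzymes and the genes named by the rule, no genes were screened, and other listed genes had opposite changes too, such as TP53I3, chosen after its values were seen (1.21 and -1.32). These differences were not tested, since each condition had 1 library. None of the 9 enzymes went in opposite directions in the 2 lines.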

How the results depend on the processing

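Within a line no paired analysis was possible, since the labels give no replicate numbers and each line had 1 library per growth form. No replicate could be left out either. A fit of growth form with the line as a block would take the 2 lines as replicates, with 1 residual degree of freedom, and was not run. The TPM values of the other gene lists were also added after seeing the data. The directions of all 9 enzymes between spheroids and adherent cells were kept in both lines under each pseudocount and scaling and with pseudogene reads added, although with TPM the LOVO changes of TK1, DUT, DHODH and RRM2B moved by more than 1.5 times. The 4 enzymes below -1 in HCT116 spheroids stayed 4 under each alternative other than a threshold of 2, where RRM2 and TK1 were left (2 enzymes), and also with the expression limit read over the 2 HCT116 libraries alone, an alternative chosen after seeing the data. In LOVO spheroids the count of 1 was not stable: it was 2 with pseudocounts of 0.1 and 0.01, and 0 with TPM, TMM-style scaling, centring and a threshold of 2, TYMS lying at -0.90 with TPM. Of LOVO against HCT116 spheroids, 2 of the 5 enzymes higher by more than 1 were left at a threshold of 2. Under TPM, chosen after seeing the data for this value, the difference between lines became 0.41 for TYMS and 0.29 for DUT, with intervals above 0, and -0.065 for RRM2B, which was -0.16 with TMM-style scaling, with intervals that included 0. TPM moved the median of all genes in LOVO from -0.06 to 0.10 and that of LOVO against HCT116 spheroids from 0.04 to 0.26. Counts over all genes moved more: in HCT116 480 genes below -1 and 316 above 1 became 849 and 937 with a pseudocount of 0.01, 760 and 764 with 0.1, and 625 and 613 with TPM. In LOVO 1133 and 1236 became 1685 and 2266, 1602 and 2074, and 972 and 2267. Of the genes above 1 in HCT116, 520 were found without an expression limit, 135 with a limit of 5 FPKM and 164 among protein-coding genes. The limit of 5 FPKM left 627 above 1 in LOVO, 1041 below and 1590 above for LOVO against HCT116 among adherent cells, and 969 and 1507 among spheroids, from 2369, 2505, 2162 and 2554. A threshold of 2 left 29 to 819 genes per direction. The counting error of 131 reads for TYMS in HCT116 spheroids was the widest among the enzymes.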
